A study of Homo sapiens with 20 samples.

Results

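The genes described here are the small nucleolar RNA host genes, taken as every gene whose symbol is SNHG followed by a number only, together with GAS5. The rule found 29 genes of the 46425 in the deposited tables, and 138 of the 170322 transcripts. HUDEP-2, a single wild-type line, consists of erythroid progenitors that were derived from cord blood and immortalized with doxycycline-inducible viral oncogenes. Its RNA was sequenced from poly(A)-selected stranded libraries on day 0, in the undifferentiated state, and on each of days 1 to 8 and on day 12 of culture in a differentiation medium with EPO, heparin, insulin, holo-transferrin and human serum. Before differentiation the cells were kept in a serum-free expansion medium with SCF, EPO, dexamethasone and doxycycline. The differentiation medium is listed without dexamethasone. It held SCF and doxycycline at first, but SCF was left out from day 6 and doxycycline from day 8. Effects of time and of medium therefore cannot be told apart in any comparison with day 0, nor on the last days. The study places day 0 at the proerythroblast stage, days 4 to 6 at the basophilic stages, day 8 at the polychromatic stage and day 12 at the orthochromatic and reticulocyte stage. There were 2 libraries on each of the 10 days, 20 in all. Set A holds the libraries of 3 tables, of days 0 to 6, of days 7 and 8, and of day 12. Set B holds those of the table that spans all days. Within set A, a change from day 6 to day 7 or from day 8 to day 12 therefore cannot be told apart from a difference between tables. The study calls its RNA-seq libraries biological replicates. Whether those of a day came from separate cultures is not given in the sources used here, so p-values measure the spread between these libraries.

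A small nucleolar RNA (snoRNA) is a short RNA that is cut from an intron of its host gene and stays in the nucleolus. Those of the box C/D class guide ribose methylation of ribosomal RNA and those of the box H/ACA class guide its pseudouridylation, while the related scaRNAs act on spliceosomal RNAs in Cajal bodies. The spliced remainder of a non-coding host gene is exported, capped and polyadenylated, and for several hosts, GAS5 among them, it is known to begin with a terminal oligopyrimidine tract, as mRNAs of ribosomal proteins do, and to be removed by nonsense-mediated decay when it is translated. Poly(A) selection therefore reads the spliced host RNA, and largely misses the snoRNA itself.

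The bases around the start of the most abundant transcript are shown for 8 hosts, as examples with and without a pyrimidine tract. Each line gives 50 bases of the coding strand of hg38, 25 before the start and 25 from the start on. Capitals mark the longest run of C and T that reaches within 5 bases of the start. The first 5 lines are abundant hosts. The last 3 had the largest fitted changes among the hosts called below, apart from SNHG31, which had at most 17 counts and a run of 7 bases.
SNHG29 (chr17:16438962-16439011, plus strand): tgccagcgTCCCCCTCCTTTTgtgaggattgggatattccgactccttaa
SNHG5 (chr6:85678709-85678758, minus strand): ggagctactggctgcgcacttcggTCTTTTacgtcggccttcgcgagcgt
GAS5 (chr1:173867967-173868016, minus strand): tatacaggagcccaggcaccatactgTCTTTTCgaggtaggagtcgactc
SNHG32 (chr6:31834891-31834940, plus strand): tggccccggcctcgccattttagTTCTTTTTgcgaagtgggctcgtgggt
SNHG1 (chr11:62855861-62855910, minus strand): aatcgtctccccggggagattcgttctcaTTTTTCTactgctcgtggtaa
SNHG10 (chr14:95534848-95534897, minus strand): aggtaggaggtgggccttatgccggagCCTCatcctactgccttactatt
SNHG9 (chr16:1964971-1965020, plus strand): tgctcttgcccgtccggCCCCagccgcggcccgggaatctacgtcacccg
SNHG4 (chr5:139273727-139273776, plus strand): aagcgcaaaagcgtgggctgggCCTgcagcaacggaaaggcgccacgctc

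Among the 24 hosts with a mean of at least 1 TPM, 14 (58.3%) had a run of at least 6 C or T there. The same run was found in 21.9% of 27305 RefSeq promoters, read at an annotated start and with no limit on level. Starts taken from RefSeq in place of the most abundant transcript gave 13 of 20 hosts (65%). They gave 11 of the 16 ribosomal protein genes with such a start, out of 25 listed that carry snoRNAs. The 8 hosts with the highest mean TPM each had such a run, SNHG29 with 13 bases ending before the annotated start. SNHG9, SNHG10 and SNHG11, which are called higher on day 12 below, had runs of 4, 4 and 2 bases. Hosts called lower on day 8 had runs of 3 (SNHG4), 5 (SNHG26), 6 (SNHG3), 2 (SNHG15) and 7 (SNHG14) bases. Those called lower on day 12 had runs of 6 to 13 bases. Whether a run goes with the direction of change was not tested. The palindrome CACGTG, the E-box that MYC and USF proteins are known to bind, lay between 250 bases before and 50 after the start in 5 of the 24 hosts (20.8%), GAS5, SNHG7, SNHG9, SNHG25 and SNHG30, and in 7.43% of all promoters. With RefSeq starts it lay in 2 of 20. These matches describe the sequence only, and the limit of 6 bases was set with the levels known.

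Libraries held 52131713 to 70358198 counts, so that a count of 0 allows up to 3 counts, or 0.0426 to 0.0575 CPM. Such limits cover counting error only. Erythroid markers were read in every library, with a summed level of 31628 to 626535 TPM over 12 genes, whereas 8 markers of other blood and stromal cells summed to at most 2.54 TPM, and CD3E, PF4 and PPBP did not pass 3 counts in any of the 20 libraries. The day 7 and day 8 libraries of set A, which came from a table separate from those of the other days of set A, stood apart from the other 18. Ribosomal RNA genes took 17.6% and 16.8% of their counts, against 0.737% to 2.68% elsewhere, and RN7SK, a small nuclear RNA without a poly(A) tail, reached 433 and 420.1 CPM, against at most 118. Globin genes took 28.2% and 33.7% of the counts on day 12, and at most 9.85% before.

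TPM, which is scaled by the authors for transcript length, allows levels of different hosts to be compared. By mean TPM over the 20 libraries 5 hosts were at 100 or more, 13 between 10 and 100, 6 between 1 and 10, and 5 below 1. SNHG29, SNHG5, GAS5 and SNHG6 led on day 0, in this order and with no overlap between neighbours. SNHG8 and SNHG32 came next and overlapped each other, and SNHG1, SNHG7, SNHG16 and SNHG17 overlapped their neighbours in turn. SNHG18, SNHG27 and SNHG28 had a count of 0 in all 20 libraries. SNHG22 had 2 or 3 counts in 3 libraries and 0 in the other 17, and SNHG31 did not pass 0.241 TPM. Together the hosts made up 0.347% and 0.319% of all TPM on day 0 in sets A and B, 0.282% and 0.268% on day 4, 0.231% and 0.215% on day 8, and 0.0687% and 0.0732% on day 12. In bulk RNA, fewer cells that hold a transcript and less of it per cell cannot be told apart.

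SNHG29, the host of SNORD49A, SNORD49B and SNORD65, was the most abundant member and took 20.8% to 39.0% of the hosts' summed TPM. On days 0 to 8 and 12 its TPM was 1146, 947, 965, 975, 1101, 1084, 1018, 871, 691 and 159 in set A, and 1119, 929.5, 931, 1004, 950.2, 955, 963, 775, 828 and 152 in set B. In both sets the values of days 7, 8 and 12 were below all earlier ones, and day 12 was the lowest.
SNHG5, which carries SNORD50A and SNORD50B, was at 813, 744, 621, 588, 579, 587, 556, 441, 389 and 75.5 TPM in set A and at 748, 664, 596, 568, 572, 569.6, 599.8, 341, 393 and 63.7 TPM in set B. Its level was highest on day 0 in both sets, and the values of days 7 and 8 lay below all earlier ones.

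GAS5, named for its level in growth-arrested cells, holds 11 small RNA rows of the tables within its span, the most of any host but SNHG14. Set A gave it 325, 285, 249, 269, 281, 311, 307, 335, 317 and 113 TPM on the 10 days, and set B 317, 296, 249, 268, 285, 288, 327, 245, 246 and 137 TPM. The sets ran together to day 6 and parted on days 7 and 8, where set A was 1.37 and 1.29 times set B. No transcript of GAS5 led, since the most abundant of its 15 took 12.4% of its mean TPM.
SNHG32, the host of SNORD48 and SNORD52, was at 149, 133, 111, 109.7, 120.2, 131, 139.9, 147, 133 and 49.6 TPM in set A and at 123, 123, 102, 105, 119, 130.3, 132, 114, 112 and 53.1 TPM in set B. As with GAS5, its values were lowest on days 2 and 3 among the days up to day 6 in both sets. SNHG6, the host of SNORD87, was at 259, 213, 202, 225, 220.3, 219, 229, 188, 195 and 68.5 TPM in set A, and at 166, 159, 166, 169, 159, 173, 173, 165, 165 and 66.6 TPM in set B. Set A lay above set B on every day, by 1.56 times on day 0 and 1.03 times on day 12.

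SNHG1 carries 8 box C/D snoRNA rows. Its TPM on the 10 days was 123, 123, 113, 117, 108, 109, 106, 99.4, 94.2 and 22.8 in set A, and 107, 119, 108, 99.8, 89.5, 104, 102, 85.4, 78.5 and 25.5 in set B. SNHG8, the host of SNORA24, was at 152, 118, 99.1, 91.9, 103, 89.8, 88.0, 90.4, 80.7 and 18.2 TPM in set A and at 133, 124, 107, 101, 106, 103, 102, 73.8, 76.4 and 18.4 TPM in set B. Both hosts had their lowest values on day 12, well clear of the earlier ones.
SNHG16, which carries SNORD1A, SNORD1B and SNORD1C, differed between the sets more than the other abundant hosts. Set A gave it 63.1, 61.8, 56.5, 59.4, 60.8, 58.4, 53.1, 35.7, 35.0 and 25.5 TPM, and set B 98.2, 90.3, 98.5, 102, 85.3, 84.2, 89.3, 67.8, 68.3 and 30.0 TPM. The higher library of a day was 1.55 times the lower on day 0 and 1.95 times on day 8, and no change of SNHG16 passed the test in the 3 comparisons below. With the set as a block SNHG16 was called higher on day 12 than on day 8, at 0.62 (SE 0.11, adjusted p = 0.000166) on TMM-scaled counts, although its TPM was lower on day 12 in both sets.

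**Figure D1:**
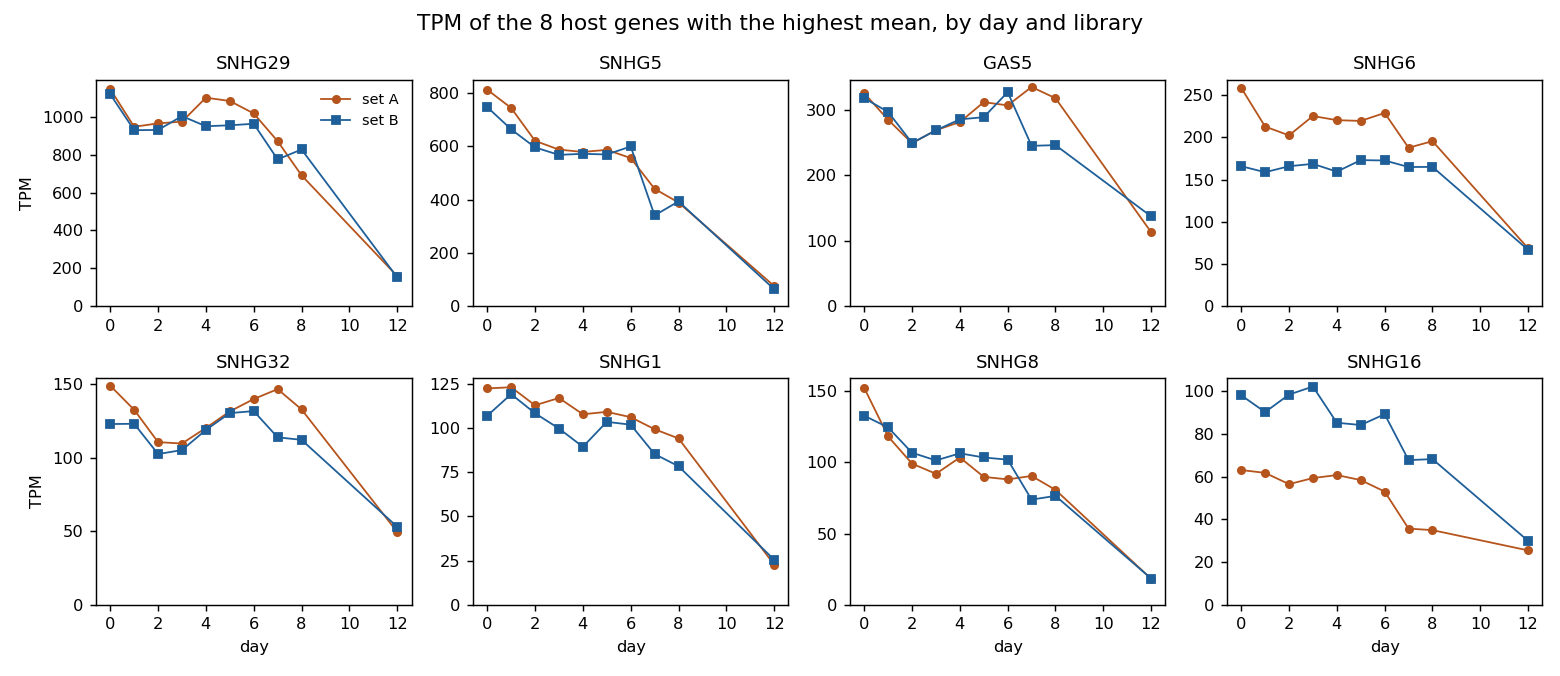
TPM (y axes, from 0) of the 8 host genes with the highest mean against the day in differentiation medium (x axes), with 1 point per library, set A as circles and set B as squares. All 8 have their lowest TPM on day 12 in both sets, and SNHG6 and SNHG16 keep the sets apart up to day 8.

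To ask which hosts changed at any time, all 20 libraries were fitted together with edgeR's quasi-likelihood test, with TMM scaling of the counts and Benjamini-Hochberg adjustment over the 16784 genes that passed a filter on low counts. Of the 29 hosts, 25 passed it, and 14 of these had an adjusted p under 0.05 for a difference between any days, against 66% of all genes tested. The smallest adjusted p of the hosts were 1.31e-08 for SNHG10, 2.24e-05 for SNHG9, 6.00e-05 for SNHG4 and 0.000129 for SNHG3. Of the 8 most abundant hosts SNHG8, SNHG1, SNHG6 and SNHG16 were not called, with adjusted p of 0.0619, 0.694, 0.727 and 0.888.

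Day 4, the basophilic stage, was compared with day 0 to see what the hosts did before the globins came to dominate the libraries. No host was called higher or lower by edgeR, where 2.93% of all genes were called higher and 2.35% lower. The log2 fold change was below 0 for 19 of the 25 hosts and for 8537 of all 16784 genes tested. Its median was -0.20 for the hosts beside -0.01 for all genes tested. SNHG3 came closest, at -0.71 (SE 0.19, adjusted p = 0.0526). Without adjustment 4 hosts had a p under 0.05, SNHG3, SNHG4 and SNHG15 with a lower and SNHG10 with a higher fitted level. The matching share of all genes was not counted. DESeq2 called SNHG3 alone lower, beside 5.74% of all genes, and a block for the set of tables called SNHG3, SNHG4 and SNHG15, beside 7.45%.

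Day 8 was compared with day 0 for the change from proerythroblasts to polychromatic erythroblasts. Of the 25 hosts tested, 1 rose and 5 fell, against 17.7% and 19.4% of all genes tested. The median of the hosts was 0.24 on the log2 scale where that of all genes was 0, but without the day 7 and day 8 libraries of set A it was -0.18. SNHG10 was the host that rose, and SNHG4, SNHG26, SNHG3, SNHG15 and SNHG14 those that fell.

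SNHG10, which carries the scaRNA SCARNA13, was at 7.69, 8.78, 7.82, 10.3, 11.0, 13.0, 10.6, 15.1, 16.6 and 35.7 TPM on the 10 days in set A and at 5.72, 9.16, 7.76, 10.3, 9.57, 11.4, 10.6, 13.8, 12.5 and 41.0 TPM in set B. Day 0 was its lowest day in both sets, and day 12 its highest. From day 0 to day 8 it rose by a log2 fold change of 1.74 (SE 0.25, adjusted p = 0.000191), from a mean TMM-scaled level of 4.48 to 15.0 CPM. Both of its transcripts were higher on day 8 than on day 0 in TPM in each set. Without the day 7 and day 8 libraries of set A the log2 fold change was 1.33 (adjusted p = 0.00234).

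SNHG4 had the largest fall. It shares its start with MATR3, a nuclear matrix protein gene, and carries SNORA74A and SNORA74D. Set A gave 24.5, 13.0, 12.5, 8.82, 6.20, 6.52, 5.79, 1.23, 1.14 and 0.411 TPM, and set B 19.8, 19.7, 18.2, 12.3, 12.7, 9.48, 9.13, 3.02, 2.08 and 0.250 TPM. Its values on days 7 and 8 were below all those of days 0 to 6, whichever set they came from. The fitted level fell by 3.19 on the log2 scale (SE 0.46, adjusted p = 0.00017), or 9.13-fold, and without the day 7 and day 8 libraries of set A the log2 fold change was -2.90 (adjusted p = 0.00292).
SNHG26, the host of SNORD93, was at 8.64, 4.65, 4.19, 3.98, 2.57, 2.60, 1.98, 0.741, 0.326 and 0.421 TPM in set A and at 6.54, 5.48, 5.81, 3.55, 4.18, 2.67, 2.32, 0.940, 1.91 and 0.357 TPM in set B. Its libraries of day 8 differed by 5.86 times, but both lay below day 0. The fitted level fell by 2.24 (SE 0.52, adjusted p = 0.00481), with as few as 10 counts in a library. Without the day 7 and day 8 libraries of set A its log2 fold change was -1.505 (adjusted p = 0.0287).

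SNHG3 shares its locus with RCC1, the exchange factor of the GTPase RAN, and carries SNORA73A and SNORA73B. It was at 66.3, 40.9, 35.1, 40.5, 29.2, 30.7, 29.4, 11.9, 12.3 and 7.02 TPM in set A and at 49.8, 38.1, 35.3, 31.3, 35.3, 29.1, 26.4, 12.3, 14.7 and 5.92 TPM in set B. The 4 libraries of days 7 and 8 were below every earlier library. From day 0 to day 8 it fell by 1.51 (SE 0.20, adjusted p = 8.78e-05), and had a log2 fold change of -1.49 (adjusted p = 0.00266) without the day 7 and day 8 libraries of set A.
SNHG15, the host of SNORA9, and SNHG14, the long imprinted host of the SNORD115 and SNORD116 clusters that runs antisense to UBE3A, fell by less. SNHG15 went from 33.4 and 33.6 TPM on day 0 to 7.62 and 9.10 TPM on day 8, a log2 fold change of -1.42 (SE 0.31, adjusted p = 0.00342). SNHG14 was at 2.55, 1.14, 1.58, 1.16, 1.52, 1.52, 1.26, 0.690, 0.434 and 0.158 TPM in set A and at 2.83, 2.02, 2.06, 1.59, 1.75, 1.87, 1.91, 1.08, 1.12 and 0.0380 TPM in set B. Its log2 fold change was -1.24 (SE 0.44, adjusted p = 0.0409), and the call was lost without the day 7 and day 8 libraries of set A, at -0.77 (adjusted p = 0.315). It was also lost without either library of day 0.

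**Figure D2:**
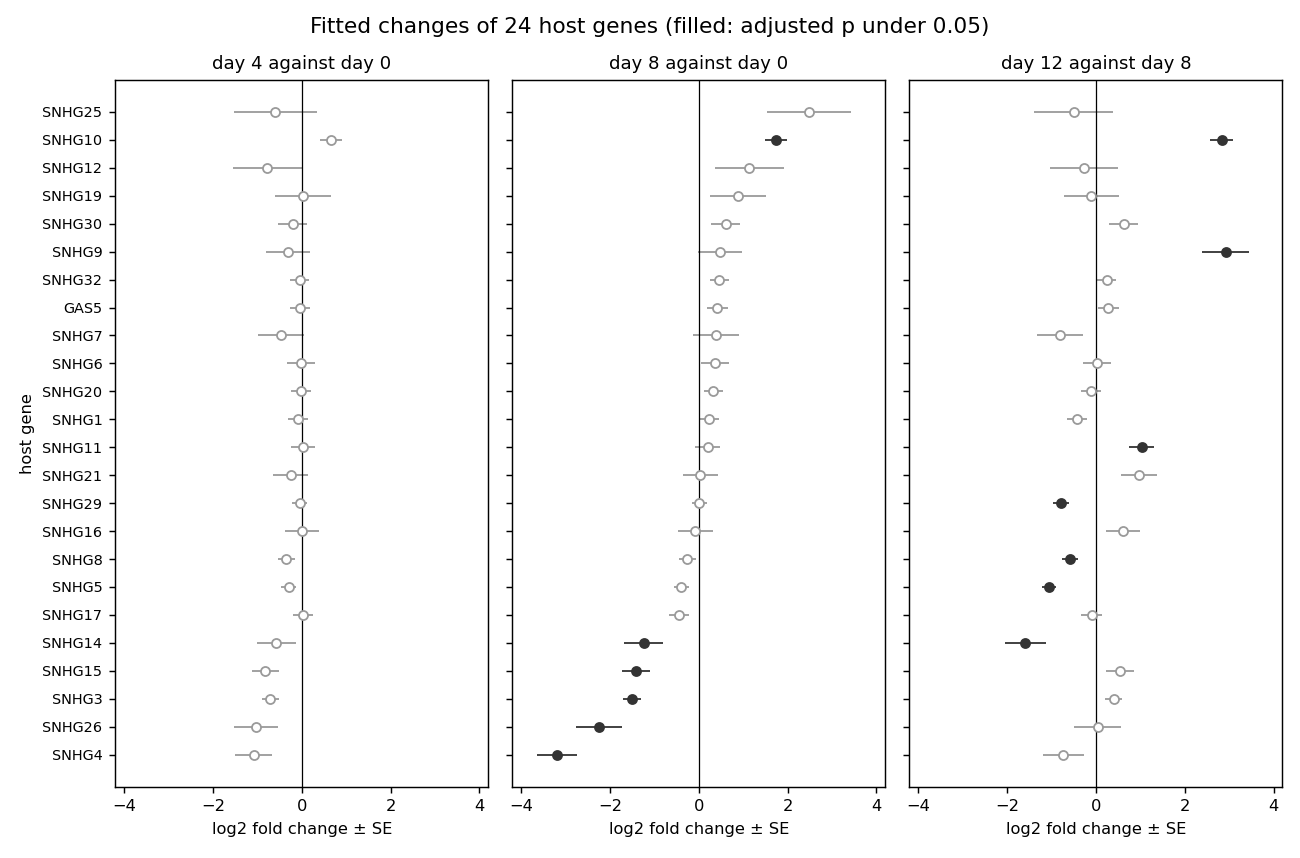
Log2 fold change with its SE (x axes) of 24 host genes (y axis, ordered by day 8 against day 0) in the 3 comparisons, filled where the adjusted p was under 0.05. No host is filled for day 4, 6 are for day 8 and 7 for day 12, where SNHG31 is left out because it had 0 counts.

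From day 0 to day 8, none of the 8 most abundant hosts was called by the TMM-scaled test without a block. SNHG29 had a log2 fold change of 0.01 (SE 0.18), SNHG8 of -0.26 (SE 0.18), SNHG5 of -0.39 (SE 0.16, adjusted p = 0.074), GAS5 of 0.42 (SE 0.23, adjusted p = 0.174) and SNHG32 of 0.46 (SE 0.22, adjusted p = 0.112). SNHG5 was called lower by DESeq2 (adjusted p = 0.03), with the set as a block (0.0206) and without the day 7 and day 8 libraries of set A (0.0398). On the scale of log2(TPM + 1), where the median of all genes shifted by -0.57 against TMM, limma called 10 hosts lower and SNHG10 higher, beside 39.7% and 7.29% of all genes. The 5 hosts added to those that fell with TMM were SNHG29, SNHG5, SNHG8, SNHG1 and SNHG17, with SNHG29 at -0.58.

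The libraries of set A on days 7 and 8 bore on the hosts directly. SNHG12, SNHG19 and SNHG25, named here after their values were seen, were higher in both than in the other 18 libraries. How many of all genes were highest there was not counted. SNHG25 was at 55.8 and 54.0 TPM in these libraries and at 3.50 to 10.4 TPM in the others. SNHG12 was at 59.1 and 71.0 TPM against 8.92 to 32.4 TPM, and SNHG19 at 36.5 and 38.7 TPM against 6.42 to 30.2 TPM. On day 8 the ratio of set A to set B was 6.86 for SNHG25, 6.78 for SNHG12 and 2.72 for SNHG19. In SNHG7 it was 2.57, and 1 of its 3 transcripts, the longest with 2176 bases, was at 26.6 and 27.9 TPM in set A on days 7 and 8 but at 3.82 and 3.48 TPM in set B.

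Some rows of snoRNAs were also higher in these libraries, within these 3 hosts and within others. The sequences of the snoRNA with the most counts within each of the 3 hosts are given, read from hg38, with the box C (TGATG) and box D (CTGA) of the C/D class or the ACA of the H/ACA class in capitals where present.
SNORD104 in SNHG25 (chr17:64146078-64146157, plus strand): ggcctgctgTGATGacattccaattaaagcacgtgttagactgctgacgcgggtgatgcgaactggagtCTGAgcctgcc
SNORD60 in SNHG19 (chr16:2155023-2155105, minus strand): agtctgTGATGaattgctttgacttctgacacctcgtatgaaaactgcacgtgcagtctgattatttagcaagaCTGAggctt
SNORA16A in SNHG12 (chr1:28580920-28581053, minus strand): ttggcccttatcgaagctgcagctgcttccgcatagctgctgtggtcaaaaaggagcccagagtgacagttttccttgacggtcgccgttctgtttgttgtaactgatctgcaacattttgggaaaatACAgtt

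SNORA16A had 203 and 276 counts in the day 7 and day 8 libraries of set A and 8 to 23 in the other 18. SNORD104 had 260 and 293 counts against 49 to 102, and SNORD60 74 and 94 against 4 to 27. SCARNA17, within SNHG22, whose own row was at 0 there, had 1902 and 2625 counts against 9 to 827. Of 55 small RNA rows within hosts other than SNHG14, 14 rows in 8 hosts had more counts in both of these libraries than in any of the other 18, and 0 had fewer. These counts are not scaled for depth. Beside SNHG12, SNHG19 and SNHG25, the hosts of the 14 rows were GAS5, SNHG1, SNHG5, SNHG9 and SNHG22. The TPM of these further hosts was not above the other 18 libraries in both. The matching number over all genes was not counted, so whether 14 of 55 is unusual in these libraries cannot be told. Over all rows named SNORA or SNORD the counts were 7577 and 10045, against 3088 to 5010. As shares of all counts these were 0.0127% and 0.0146%, against 0.00577% to 0.00826%. Mature snoRNAs are not polyadenylated, and reads of a mature snoRNA and of unspliced host RNA over the same bases cannot be told apart in these tables. The part of the ribosomal RNA share and of the snoRNA counts in the levels of SNHG12, SNHG19 and SNHG25 was not tested.

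**Figure D3:**
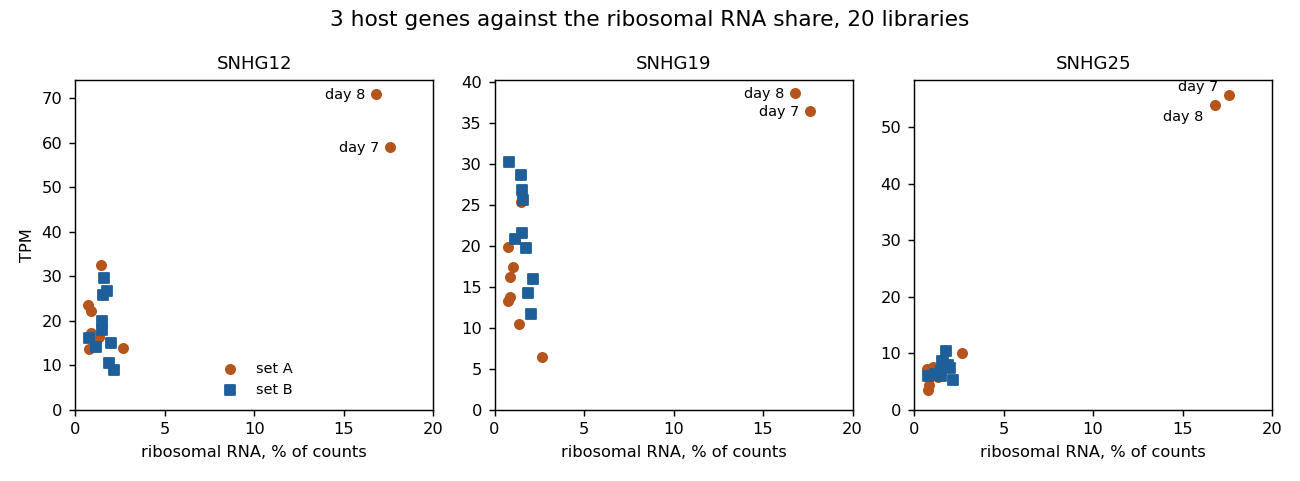
TPM (y axes, from 0) of SNHG12, SNHG19 and SNHG25 against the share of counts from ribosomal RNA genes in percent (x axes), with 1 point per library in 20 libraries, set A as circles and set B as squares. The day 7 and day 8 libraries of set A, at 17.6% and 16.8% ribosomal RNA, are above all other libraries in each panel.

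With these libraries the day 8 values of SNHG12, SNHG19 and SNHG25 did not pass the test. SNHG25 had a log2 fold change of 2.47 (SE 0.94, adjusted p = 0.055) from day 0, and SNHG12 of 1.14 (SE 0.78, adjusted p = 0.27). DESeq2 and both other filters on low counts did call SNHG25 higher. Without them SNHG12 was called lower, at -1.02 (adjusted p = 0.0281, beside 10.9% of all genes called lower), SNHG25 was at 0.32 (adjusted p = 0.705) and SNHG19 at -0.18. Without the day 8 library of set B, in which day 8 rests on set A alone, the hosts called higher went from 1 to 6, adding GAS5, SNHG12, SNHG25, SNHG30 and SNHG32. Of all genes, 16.4% were then called higher.
The same libraries were the lowest up to day 8 for 7 hosts, SNHG3, SNHG4, SNHG14, SNHG15, SNHG16, SNHG17 and SNHG26, although for SNHG3 the ratio of set A to set B was 0.965 on day 7 and 0.834 on day 8. How many of all genes were lowest there was not counted.

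The remaining hosts that were tested, SNHG7, SNHG17, SNHG20, SNHG21 and SNHG30, passed the threshold in none of the 3 comparisons in the fit without a block. On days 0, 8 and 12, SNHG17, the host of 4 SNORA71 rows, was at 67.3, 28.4 and 11.1 TPM in set A and at 73.5, 40.9 and 11.9 TPM in set B, and its log2 fold change with TMM was -0.44 (SE 0.23) on day 8. With the set as a block it was called lower there, at -0.45 (adjusted p = 0.00572), as 25.7% of all genes were. SNHG20 and SNHG21, hosts of the scaRNAs SCARNA16 and SCARNA15, kept between 1.41 and 6.61 TPM and between 1.81 and 5.25 TPM. SNHG30, the host of SNORD7, ranged from 6.33 to 17.7 TPM, and in the test over all days its adjusted p was 0.00758. SNHG21 came closest in a comparison, at 0.97 (SE 0.40, adjusted p = 0.051) from day 8 to day 12. It was called higher there by DESeq2 (adjusted p = 0.0124), with upper-quartile scaling (0.0231), with TMM without globin genes (0.0494), with at least 10 counts in every library (0.0177) and with the set as a block (0.025), where 27.5% of all genes were called higher. Without the day 7 and day 8 libraries of set A it was at 0.74 (adjusted p = 0.208). In TPM it went from 2.54 to 1.81 in set A and from 4.21 to 2.75 in set B.

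**Figure D4:**
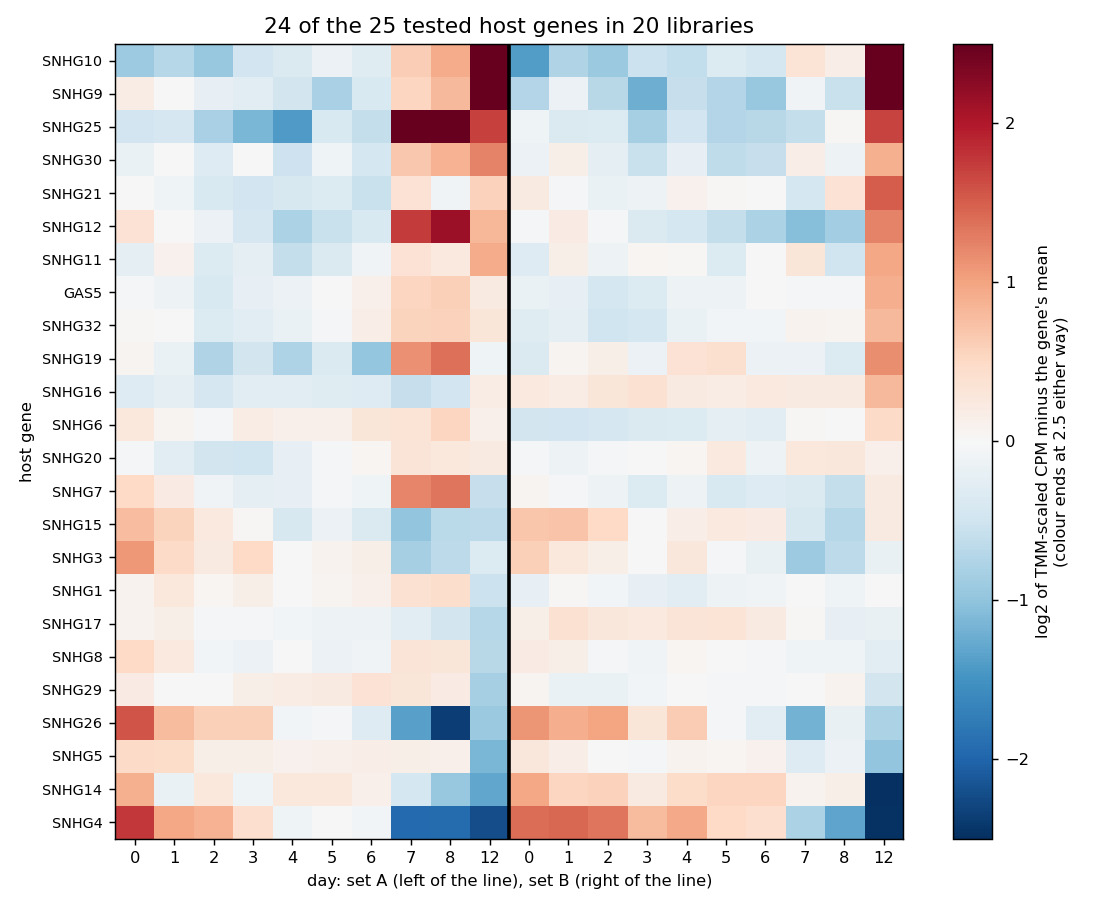
Heat map of 24 tested host genes (rows) in the 20 libraries (columns, by day, set A left of the line and set B right of it), where the colour is the log2 of the TMM-scaled CPM minus the gene's mean over the libraries. SNHG10 and SNHG9 are highest on day 12 in both sets, while SNHG25 and SNHG12 are highest in the day 7 and day 8 libraries of set A and SNHG4 is lowest on day 12 in both sets.

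Day 12 was compared with day 8 for the last stage, when the nucleus condenses and is lost. Of the 25 hosts tested, 3 rose and 5 fell with TMM scaling, beside 23.8% and 33.4% of all genes. The hosts had a median log2 fold change of -0.10 and all genes of -0.20, and without the day 7 and day 8 libraries of set A these were 0.39 and -0.07. Upper-quartile scaling moved the median of all genes by 0.18. SNHG9, SNHG10 and SNHG11 rose, and SNHG31, SNHG14, SNHG5, SNHG29 and SNHG8 fell.

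SNHG9, a host of SNORA78 whose spliced RNA is 233 bases long, was at 22.7, 18.5, 16.7, 15.2, 13.4, 10.5, 13.1, 19.8, 21.6 and 34.8 TPM in set A and at 12.7, 18.1, 12.5, 8.52, 12.5, 11.4, 9.99, 13.7, 10.2 and 53.7 TPM in set B. Day 12 was above every other day in each set. It rose by 2.92 on the log2 scale from day 8 (SE 0.53, adjusted p = 0.000307), from 2.35 to 17.8 CPM. SNHG10 rose by 2.84 (SE 0.26, adjusted p = 7.16e-07), or 7.15-fold, from 15.0 to 107 CPM. SNHG9 and SNHG10 were the 2 hosts with a higher TPM on day 12 than on day 8 in both sets, while the TPM of 20 of 24 hosts was lower on day 12 in both. Genes as a whole also moved down on this scale. The median of all genes tested was -0.68 on log2(TPM + 1), beside -0.96 for the tested hosts. The matching count over all genes was not made.
SNHG11, which carries SNORA60 and SNORA71E, changed direction with the scale. Its TPM was 5.82, 6.90, 5.23, 5.41, 4.24, 4.94, 5.52, 6.01, 5.02 and 3.76 in set A and 5.84, 7.75, 6.34, 7.11, 6.53, 5.15, 6.59, 6.24, 3.65 and 2.91 in set B. The TMM-scaled log2 fold change was 1.03 (SE 0.28, adjusted p = 0.00602), whereas on log2(TPM + 1) it was -0.29. The call was lost without the day 8 library of set B, at 0.69 (adjusted p = 0.0882).

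SNHG5 fell by 1.05 from day 8 to day 12 (SE 0.16, adjusted p = 9.40e-05) and SNHG29 by 0.78 (SE 0.18, adjusted p = 0.00182), and neither call was lost under any alternative. SNHG8 fell by 0.58 (SE 0.19, adjusted p = 0.0157), a call that DESeq2 and upper-quartile scaling did not make, with adjusted p of 0.0694 and 0.104, and which was also lost without the day 8 library of set A (0.151) or the day 12 library of set A (0.114), without the day 7 and day 8 libraries of set A (0.1002) and with only the 4 libraries compared (0.174). SNHG14 fell by 1.59 (SE 0.46, adjusted p = 0.00901), with 0.158 TPM in set A and 0.0380 TPM in set B on day 12. The call was lost without the day 8 or the day 12 library of set B, with adjusted p of 0.137 and 0.0862. SNHG31 had 15 counts in all over the libraries of day 8 and 0 over those of day 12. Its adjusted p with edgeR was 0.00534, and limma on log2(TPM + 1) did not call this host. Taken against a limit of 3 counts over both day 12 libraries it was at least 2.76-fold lower in TMM-scaled CPM.
Without the day 7 and day 8 libraries of set A, 7 hosts were called higher on day 12, beside 21.1% of all genes, and GAS5 (0.60, adjusted p = 0.0355), SNHG12, SNHG25 and SNHG30 joined the 3 above.

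**Figure D5:**
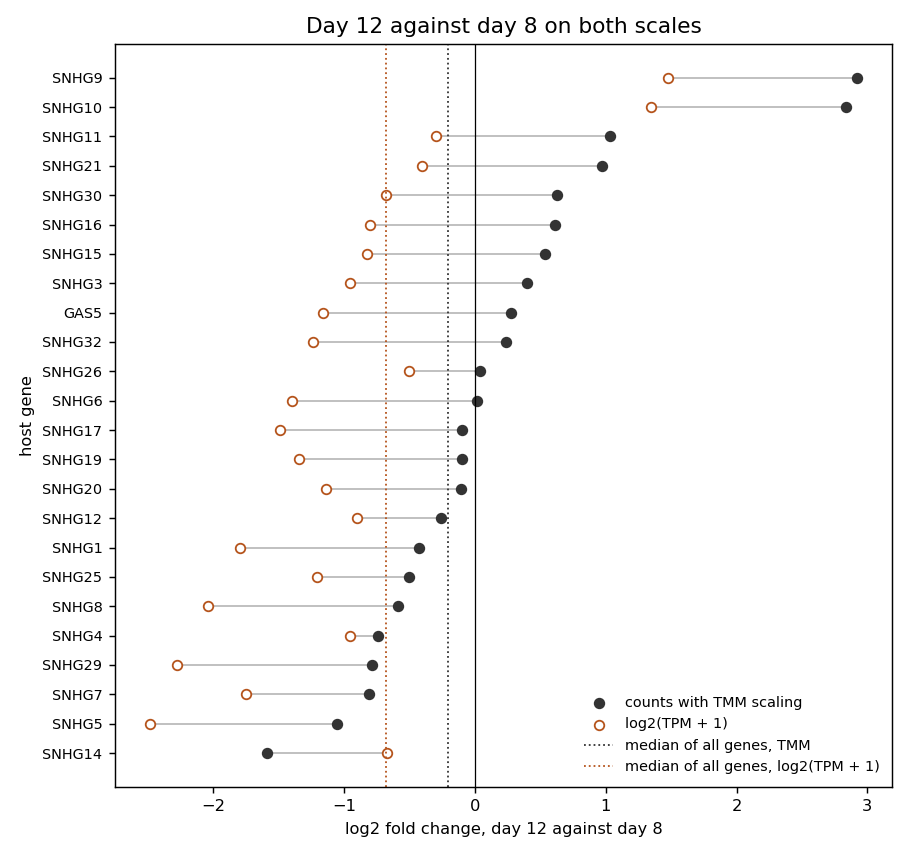
Log2 fold change from day 8 to day 12 (x axis) of 24 host genes (y axis), as filled points for TMM-scaled counts and open points for log2(TPM + 1), with dotted lines at the median of all genes on each scale. SNHG9 and SNHG10 stay above 0 on both scales, while GAS5 moves from 0.28 to -1.16.

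On the TPM scale the last step looked different for the abundant hosts. The median of all genes shifted by -1.12 against TMM in log2(TPM + 1), and limma called 15 hosts lower and 2 higher, beside 53.6% and 8.38% of all genes. GAS5 went from 0.28 (SE 0.23) with TMM to -1.16, SNHG32 from 0.24 to -1.24 and SNHG6 from 0.02 to -1.40. SNHG29 and SNHG5, which fell on both scales, were also below the median of all genes on both. TPM counts the globins, and TMM compares genes with the bulk of the other genes. The globins had 28.2% and 33.7% of the counts on day 12, which is not their share of TPM. HBB alone reached 332052 TPM in its highest library, and the 12 erythroid markers together reached 626535 TPM.

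RNAs of the proteins that bind snoRNAs were lower by day 8, by an amount that differed between the sets. Names of proteins stand here for their RNA, since only RNA was read in these data. The RNAs of all 4 core proteins of box C/D particles fell from day 0 to day 8, with a median of -0.89, beside 19.4% of all genes. Fibrillarin (FBL), the methyltransferase, had a log2 fold change of -0.72, NOP56 of -1.14 and NOP58 of -0.99. The RNAs of all 4 core proteins of the H/ACA class fell as well, with a median of -0.69, including the pseudouridine synthase dyskerin (DKC1) at -0.59 and NHP2 at -1.03. Of 10 assembly factors 8 fell, NOLC1 most with -1.71 and the ATPase RUVBL2 by 0.85. The log2 fold changes were on median further below 0 in set A, whose day 8 library is one of those that stood apart, with medians of -1.25 in set A and -0.64 in set B for the C/D genes, -1.06 and -0.39 for the H/ACA genes and -1.37 and -0.51 for the genes of assembly factors. Without the day 7 and day 8 libraries of set A, 3 of the 4 C/D genes, none of the 4 H/ACA genes and 3 of the 10 genes of assembly factors were called lower, beside 10.9% of all genes. Fibrillarin was then at -0.41 (adjusted p = 0.249), dyskerin at -0.41 (0.0657) and NHP2 at -0.73 (0.0547). None of these lists held a gene that was called on day 4. On day 12 against day 8, RNAs of 3 of the 4 C/D genes fell further with a median of -1.57, those of 2 of the 4 H/ACA genes fell and 1 rose, and those of 8 of the 10 assembly factors fell and 2 rose, beside 33.4% of all genes that fell and 23.8% that rose.

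Few genes for factors of nonsense-mediated decay were called by day 8. Of 14, 2 (14.3%) fell, beside 19.4% of all genes, and none was called higher, UPF3A with -0.67 being the one that fell most, and UPF1, the central helicase, was at 0.13. From day 8 to day 12, 7 of them (50%) rose and 3 (21.4%) fell, beside 23.8% and 33.4% of all genes.
Other genes that carry snoRNAs are a comparison for the hosts. Of 3 further non-coding hosts, DANCR fell from day 0 to day 8 by 1.90, while ZFAS1 had -0.06 and EPB41L4A-AS1 -0.53 and were not called. On day 12 DANCR fell by a further 2.01 and both others rose, by 0.83 and 1.53. Of 16 protein-coding hosts outside the ribosome 7 (43.8%) fell and 1 (6.25%) rose by day 8, beside 19.4% and 17.7% of all genes, with a median of -0.44, and without the day 7 and day 8 libraries of set A 3 were called lower and 0 higher. Nucleolin (NCL), which acts in ribosome biogenesis, fell by 1.48 and the helicase EIF4A2 rose by 0.68. Of 25 ribosomal protein hosts 4 (16%) rose and 1 (4%) fell by day 8, beside 17.7% and 19.4% of all genes. Their median was 0.23, and 0.225 without those libraries. RPL10 rose by 0.84 and RPL23 fell by 0.75. On day 12 against day 8, 5 (20%) of the 25 rose and 6 (24%) fell, beside 23.8% and 33.4% of all genes, with a median of -0.06. Differences between these lists were not tested.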

How the data were processed

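HUDEP-2 libraries were made with the TruSeq Stranded mRNA kit. Per the labels' processing notes and the study's methods, the authors used Trimmomatic 0.38, HISAT2 2.1.0 on hg38 and StringTie 2.1.3b on known RefSeq transcripts. The strand setting and the division of reads shared by transcripts are not given in the sources used here, and 13 of the 29 hosts overlap another gene, so their values are uncertain to that degree. The 4 deposited tables hold read counts, left without normalization by the authors, and TPM, scaled by the authors for length and to a fixed total. Values came from 40 columns of single libraries, and 23 further columns were not used here (FPKM, and the third of 3 sets of day 0 columns for 2 day 0 samples). No column name ties a day 0 set to a sample, so the choice of the 2 sets used is uncertain and bears on every comparison with day 0.

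Counts and TPM were summed by gene symbol. edgeR 4.0.16 (filterByExpr, TMM, glmQLFit, glmQLFTest) was fitted once to all 20 libraries with a coefficient per day, with Benjamini-Hochberg adjustment over all genes tested and a threshold of 0.05. SE is the absolute log2 fold change over the square root of F. Alternatives used DESeq2 1.42.0, limma 3.58.1 on log2(TPM + 1) and log2(TPM + 0.1), upper-quartile scaling, TMM without globin or ribosomal RNA genes, 2 other filters, only the 4 libraries compared, a block for the set of tables, each library left out, and 3 further non-coding hosts. Leaving out the day 7 and day 8 libraries of set A was added after seeing the data. On simulated counts of 15749 genes for day 8 against day 0, with 200 changed 4-fold, edgeR recovered 100% with 5.66% of its calls false. The simulation used the same spread for all genes, changed only genes above a low limit of expression and held no library that stood apart. It therefore gives no measure of recovery at the real spread, where SNHG25 had an SE of 0.94. In each day, 65.3% to 78.0% of genes differed between the libraries by more than sampling noise, so none was counted as duplicated on deposit. The members and all lists were chosen with earlier results of these data known. Values in every library are given for the 8 hosts with the highest mean TPM and for up to 3 called hosts with the largest increase and decrease per comparison. SNHG31 is an exception and is given as summed counts. A marker gene of another cell type in the planned list is not reported here.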

Additional observations from a re-analysis of the deposited data

How the results depend on the processing

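Depth was not limiting for the abundant hosts, while SNHG31, with at most 17 counts, and SNHG26, with as few as 10, rest on few reads. No paired analysis was possible because the deposited columns name a day and carry no replicate number. The set of tables was fitted as a block in its place, with the 3 tables of set A taken as 1. With this block 0 hosts were called higher and 3 lower on day 4, 1 and 7 on day 8, and 5 and 5 on day 12. Of 477 log2 fold changes of named hosts recomputed under alternatives, 385 kept their direction and side of the threshold, 26 passed it only there, 18 no longer passed it and 48 changed sign. The causes were not tested. The TPM scale includes the globins, and fewer libraries were fitted where some were left out.

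Hosts called lower on day 4 than day 0 were 0 in the report, 1 with DESeq2, 1 with at least 10 counts in every library, 2 on log2(TPM + 1), 1 on log2(TPM + 0.1) and 3 with the set of tables as a block. Over all genes these counts were 395, 963, 373, 1114, 790 and 1250 in the same order. They are of 11081 genes with at least 10 counts in every library and of 16784 otherwise. On day 8 against day 0, the 1 called higher became 2 with DESeq2, 2 without a filter and 2 with at least 10 counts in every library, and the 5 called lower became 6 with DESeq2, 7 with the block, 6 without the day 7 and day 8 libraries of set A, 10 on either TPM scale and 3 with only the 4 libraries compared, where SNHG14 and SNHG26 were lost. On day 12 against day 8, the 3 called higher became 6 with DESeq2, 5 with upper-quartile scaling, 5 with at least 10 counts in every library, 5 with the block, 5 with the 3 further hosts and 7 without the day 7 and day 8 libraries of set A. The 5 called lower became 15 on log2(TPM + 1), 17 on log2(TPM + 0.1) and 2 with only the 4 libraries compared, and SNHG11 was also lost there. Calls over all genes moved too. Of 16784 genes, 5611 were lower on day 12 in the report, 8997 on log2(TPM + 1) and 9739 on log2(TPM + 0.1). On day 8 these were 3254, 6660 and 6555. With only the 4 libraries compared, 4130 of 14504 were lower on day 12 and 2027 of 14829 on day 8. Genes called higher on day 12 were 3997 in the report, 4514 with DESeq2, 4544 with upper-quartile scaling and 4613 with the block. With each library left out in turn, hosts called on any day were 12 to 17, on day 4 from 0 to 0 higher and 0 to 1 lower, on day 8 from 1 to 6 higher and 4 to 5 lower, and on day 12 from 3 to 5 higher and 4 to 6 lower. The 6 came without the day 8 library of set B, the 1 lower on day 4 without the day 0 library of set B, and the 5 higher on day 12 without the day 12 library of set A.

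Log2 fold changes that changed sign on day 8 against day 0 on log2(TPM + 1) were GAS5 -0.20, SNHG1 -0.41, SNHG12 -0.079, SNHG29 -0.58, SNHG32 -0.15, SNHG6 -0.20 and SNHG7 -0.71, and on log2(TPM + 0.1) GAS5 -0.20, SNHG1 -0.41, SNHG12 -0.10, SNHG29 -0.58, SNHG32 -0.15, SNHG6 -0.21 and SNHG7 -0.72. On day 12 against day 8 they were GAS5 -1.16, SNHG11 -0.29, SNHG16 -0.80, SNHG32 -1.24 and SNHG6 -1.40 with the former, and GAS5 -1.17, SNHG11 -0.36, SNHG16 -0.82, SNHG32 -1.25 and SNHG6 -1.41 with the latter. Without a filter, SNHG6 was -0.030. SNHG29, at 0.01 on day 8, was -0.011 with DESeq2, -0.012 without a filter, -0.0024 with at least 10 counts in every library and -0.015 without the day 7 and day 8 libraries of set A. Without these libraries SNHG1 was -0.037, SNHG12 -1.02, SNHG16 0.25, SNHG19 -0.18 and SNHG7 -0.86 on day 8.

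With 1 library left out, ranges that crossed 0 on day 8 were -0.065 to 0.50 for SNHG1, -1.05 to 1.98 for SNHG12, -0.45 to 0.23 for SNHG16, -0.21 to 1.52 for SNHG19, -0.056 to 0.082 for SNHG29 and -0.89 to 1.06 for SNHG7. On day 12 they were -0.10 to 0.61 for GAS5, -0.052 to 0.51 for SNHG32 and -0.24 to 0.29 for SNHG6.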

Other observations

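Some small RNA rows carried no information on level. SNORA17A and SNORA17B within SNHG7, SNORA61 within SNHG12 and SNORD25 within SNHG1 had a count of exactly 1 in each of the 20 libraries, as had 29 genes of the tables in all.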
